A study of Mus musculus with 6 samples.

Results

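Klf2, S1pr1, S1pr4 and Ccr7 are 4 genes of T-cell trafficking, taken by symbol from the 13564 genes of the deposited normalized table. All 4 were among the 13691 genes tested here. They were followed in RNA sequencing libraries of activated CD4 T cells that lacked or carried Foxo1, a forkhead transcription factor of quiescent lymphocytes. The comparison asks how the loss of Foxo1 altered the transcripts that govern T-cell entry into and exit from lymphoid tissue.

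Klf2 is a zinc finger transcription factor of the Krüppel-like family that is abundant in naive T cells and drives transcription of S1pr1. S1pr1 is the receptor for sphingosine 1-phosphate (S1P) that T cells need to leave the thymus and the lymph nodes for the lymph, and S1pr4 is a related S1P receptor largely restricted to lymphoid and other blood cells. Ccr7 binds the chemokines Ccl19 and Ccl21 and lets naive T cells enter lymph nodes. Foxo1 is known to act upstream of Klf2, Ccr7 and S1pr1 in resting T cells.

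The Foxo1TKO group (n = 3) came from CD4-cre Foxo1 fl/fl mice, in which Cre driven by Cd4 deletes Foxo1 in thymocytes before CD4 and CD8 T cells separate, so that neither lineage keeps it. The Foxo1Ctrl group (n = 3) came from Foxo1 fl/fl mice without Cre. Both groups were C57BL/6J by the labels and young adults by the study's text, which lists these strains with a Foxp3-GFP reporter. Naive CD4 T cells sorted from lymph nodes were cultured for 4 days, 50000 per culture by the labels, with the anti-CD3 antibody 145-2C11 at 0.1 µg per ml. Each culture also received 250000 splenocytes from CD3eKO mice, which have no T cells and served as antigen presenting cells. The labels name peripheral nodes only, whereas the study's methods name peripheral and mesenteric nodes and a larger number of naive cells. All the libraries are therefore of cells activated for 4 days, with no unstimulated sample, and neither text says whether splenocytes were removed before RNA extraction. The labels do not say that the replicates came from separate mice, so p-values measure the spread between these samples, which may be technical.

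The libraries held between 14783853 and 19675407 counts. Foxo1 itself had 84.7, 46.1 and 114 normalized counts in the Foxo1TKO libraries 1 to 3 against 1516, 2266 and 1584 in the Foxo1Ctrl libraries, which matches the labels, although Gm20402, an antisense gene, lies over Foxo1 exons. The 8 T-cell marker genes tested, Cd3e and Cd4 among them, summed to between 117200 and 124200 normalized counts in Foxo1TKO libraries and between 126600 and 138900 in Foxo1Ctrl libraries, and none was called. The 10 listed B-cell markers summed to between 162.8 and 219.3 counts in Foxo1TKO libraries and to between 555.7 and 634.2 in Foxo1Ctrl libraries. Of the 8 B-cell markers tested, 4 were called lower (Cd79a, Cd79b, Ms4a1 and Cd22), beside 11.8% of all genes tested. B cells also express Klf2, S1pr1, S1pr4 and Ccr7 as background knowledge, and the part of B-cell RNA in the differences below was not tested. The 7 macrophage markers summed to at most 17.03 counts in any library and the 4 neutrophil markers to at most 25.14. The 6 dendritic cell markers, mostly Zbtb46 with some Xcr1, summed to 144.7 to 202 in Foxo1TKO and 152 to 262.3 in Foxo1Ctrl libraries. Flt3, Siglech, Clec9a and Cd209a had no more than 5.67 counts in any library. The 3 plasma cell markers, mostly Jchain, ran from 301.7 to 844.9 in Foxo1TKO and from 1378 to 2262 in Foxo1Ctrl libraries. In cultures of mixed cells, fewer cells of a type and less RNA per cell cannot be told apart.

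All 4 genes were lower in Foxo1TKO than in Foxo1Ctrl cultures, and the libraries of the genotypes did not overlap for any of them in normalized counts. A gene was called when its adjusted p was under 0.05 and its fold change over 1.5 by the quasi-likelihood method of edgeR, with p-values adjusted after Benjamini and Hochberg over every gene tested. By this rule 23.0% of the 13691 genes were called, 11.8% lower and 11.1% higher. Normalized values did not overlap for 42.7% of the genes, with 21.2% lower and 21.5% higher in Foxo1TKO libraries. The median log2 fold change of the 4 genes was −3.5, beside 0.01 over all genes tested. The fitted drop was deepest for Klf2, then S1pr1, S1pr4 and Ccr7, although the within-library ratios of S1pr4 to Ccr7 overlapped between the genotypes. With 1 library left out, the call was lost for S1pr4 or for Ccr7, or for both, in 4 of the 6 fits, whereas the calls of Klf2 and S1pr1 were kept in all 6.

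**Figure D1:**
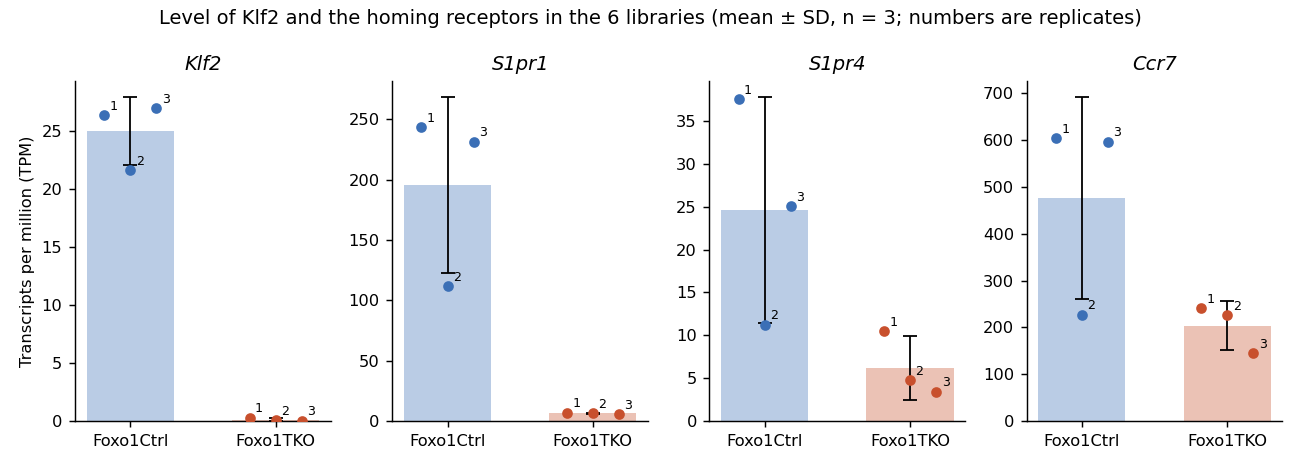
Level in TPM (linear axes from 0, one scale per gene) of Klf2, S1pr1, S1pr4 and Ccr7 in each library, numbered by replicate, with bars and error bars for mean ± SD (n = 3 per genotype). Klf2 averaged 25 in Foxo1Ctrl and 0.11 in Foxo1TKO cultures, whereas Ccr7 averaged 476 and 204 and its Foxo1Ctrl 2 value of 227 lies below that of Foxo1TKO 1, at 241.

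Klf2 (ENSMUSG00000055148, GRCm38 chromosome 8, 72319033 to 72321656, plus strand) has 1 annotated transcript of 3 exons, which overlap no exon of another gene. Its promoter is shown because Klf2 is known to be induced by the kinases Mek5 and Erk5 through MEF2 factors, and the window holds a MEF2 motif. It is the RefSeq sequence chr8:72318812-72319032 of GRCm38.p6 on the plus strand, 221 bases that end just before the annotated gene start and 29 bases before the RefSeq start site, with the MEF2 match in capitals.
Klf2 promoter: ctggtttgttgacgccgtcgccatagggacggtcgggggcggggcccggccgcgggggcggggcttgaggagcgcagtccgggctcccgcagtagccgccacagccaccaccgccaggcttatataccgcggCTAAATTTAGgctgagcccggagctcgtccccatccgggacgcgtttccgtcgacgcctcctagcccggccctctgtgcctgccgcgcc
The motif CTANNNNTAG, searched on both strands, matched from −118 to −109 of the RefSeq start and is found in 3.2% of 32851 promoter windows of 250 bases. The forkhead motif TGTTTAC, searched the same way, is in 3.17% of these windows and in neither the Klf2 nor the S1pr4 window. No window was read for S1pr1 and Ccr7. These matches describe letters only.

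In Foxo1Ctrl libraries 1, 2 and 3, Klf2 had 644.4, 637.3 and 661.1 normalized counts. In Foxo1TKO libraries 1, 2 and 3 it had 5.87, 1.74 and 0. The controls were nearly level, with a coefficient of variation of 1.88%, and the lowest control stood 109-fold above the highest Foxo1TKO value. Klf2 thus fell by 7.46 on the fitted log2 scale (standard error 0.51, adjusted p = 0.000117 by edgeR). It rests on few counts on the Foxo1TKO side, so its size depends on the prior count of 1. Summed over libraries, 9 counts stood against 1795, a normalized ratio of 236-fold with a 95% Clopper-Pearson interval of 124 to 518 that covers counting error only. Of the 13691 genes tested, only 5 had a lower fitted log2 fold change. The change ran from −8.37 to −7.08 with 1 library left out.

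S1pr1 (ENSMUSG00000045092, chromosome 3, 115710433 to 115715072, minus strand, 2 exons) had 10180, 5635 and 9725 normalized counts in the Foxo1Ctrl libraries. The Foxo1TKO libraries held 262.3, 285.4 and 266.1. The 3 Foxo1TKO libraries were close to each other (coefficient of variation 4.56%), whereas Foxo1Ctrl 2 lay well below the other controls (29.4%), and the groups were still 19.7-fold apart at their nearest values. S1pr1 fell by 4.97 on the log2 scale (standard error 0.27, adjusted p = 4.5e-05 by edgeR), about 31.3-fold. Unlike Klf2, a transcript remained at 6.33 ± 0.524 TPM (a level per transcript length that sums to the same total in each library) against 196 ± 72.8 in the controls.

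S1pr4 (ENSMUSG00000044199, chromosome 10, 81497747 to 81500132, minus strand, 1 exon) had 1212, 437.8 and 811.9 normalized counts in the Foxo1Ctrl libraries. Its Foxo1TKO values were 316, 159.2 and 122.4. Both genotypes were spread, with coefficients of variation of 47.2% in controls and 51.6% in Foxo1TKO libraries, and Foxo1Ctrl 2 stood only 1.39-fold above Foxo1TKO 1. S1pr4 fell by 2.03 on the log2 scale (standard error 0.46, adjusted p = 0.0154 by edgeR). The call was lost without Foxo1TKO 2 (−1.88, adjusted p = 0.0718 by edgeR) and without Foxo1Ctrl 1 (−1.64, adjusted p = 0.053 by edgeR).

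Ccr7 (ENSMUSG00000037944, chromosome 11, 99144196 to 99155077, minus strand, 3 exons) had 15910, 7205 and 15760 normalized counts in the Foxo1Ctrl libraries. The Foxo1TKO libraries held 5935, 6181 and 4218. Foxo1Ctrl 1 and 3 were more than 2-fold above every Foxo1TKO library, but Foxo1Ctrl 2 stood only 1.17-fold above Foxo1TKO 2. Ccr7 fell by 1.25 on the log2 scale (standard error 0.31, adjusted p = 0.0237 by edgeR). The call was lost without Foxo1TKO 2 (−1.34, adjusted p = 0.0662 by edgeR), Foxo1TKO 3 (−1.10, 0.0794), Foxo1Ctrl 1 (−1.08, 0.0766) or Foxo1Ctrl 3 (−1.09, 0.0789). On TPM it was not called either (log2 difference −1.13 with 0.1 added, adjusted p = 0.0819 by limma), and Foxo1Ctrl 2, at 227 TPM, lay inside the Foxo1TKO range of 144.5 to 241 TPM.

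The low value of Foxo1Ctrl 2 was shared by the 3 receptors and not by Klf2. Its log2 deviation from the control mean was −0.55 for S1pr1, −0.79 for S1pr4 and −0.76 for Ccr7, and −0.02 for Klf2. In the same library the fifth of genes with the highest GC content lay at a median of −0.34 and the fifth with the lowest at 0.18. The transcripts of S1pr4 (59.3% GC) and Klf2 (61.6%) are richer in GC than 96.1% and 98.8% of the genes, those of Ccr7 (53.5%) than 74.9% and those of S1pr1 (48.8%) than 50.4%. In a fit corrected for GC content, chosen after the data were seen, S1pr4 fell by 2.16 on the log2 scale (standard error 0.30, adjusted p = 0.00156 by edgeR) and Ccr7 fell by 1.31 (standard error 0.24, adjusted p = 0.00592). The part of GC content in the uncorrected values was not tested further.

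**Figure D2:**
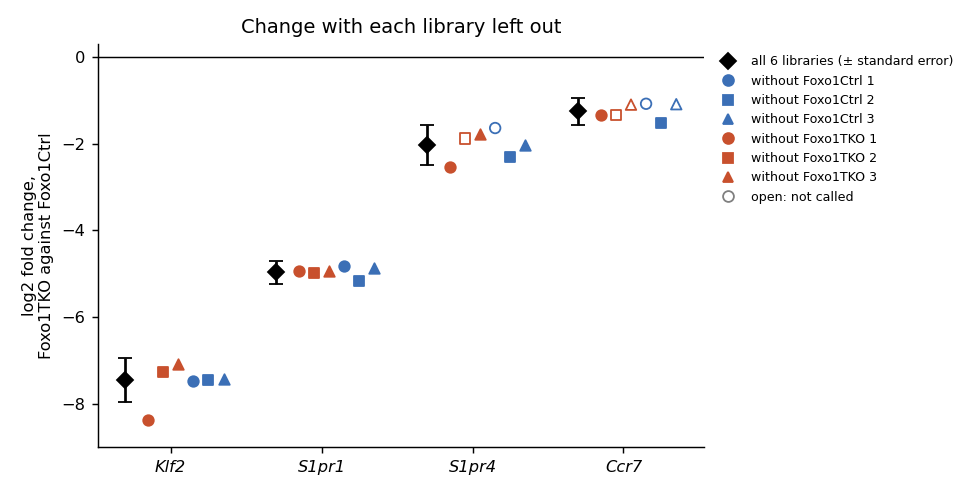
Log2 fold change of Klf2, S1pr1, S1pr4 and Ccr7, Foxo1TKO against Foxo1Ctrl, with all 6 libraries (black diamonds, ± standard error) and with each library left out (colour for the genotype and shape for the replicate, open symbols where the gene was no longer called). Every value lies below 0, from −8.37 for Klf2 to −1.08 for Ccr7, and open symbols are seen for S1pr4 and Ccr7 only.

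Levels of different genes were compared in TPM. The order in Foxo1Ctrl cultures was Ccr7 (476 ± 216 TPM), S1pr1 (196 ± 72.8), Klf2 (25 ± 2.94) and S1pr4 (24.6 ± 13.2), each as mean ± SD of 3 libraries. Klf2 and S1pr4 did not differ beyond their spread there. In Foxo1TKO cultures the order was Ccr7 (204 ± 51.8 TPM), S1pr1 (6.33 ± 0.524), S1pr4 (6.21 ± 3.75) and Klf2 (0.11 ± 0.135), in which S1pr1 and S1pr4 did not differ beyond their spread. Among all genes tested, Ccr7 had a higher mean TPM than 97.5% in controls and 93.7% in Foxo1TKO cultures, so it stayed an abundant transcript. Klf2 had a higher mean than 68.2% in controls and 0.942% in Foxo1TKO cultures.

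The unequal depth of the 4 changes was compared within libraries, where scaling cancels, on the log2 ratio of normalized counts with Klf2 held at a floor of 3 counts per library. The change of S1pr1 minus that of Ccr7 was −3.74 and minus that of S1pr4 was −2.88, and in both pairs the ratios of the genotypes did not overlap. The change of Klf2 minus that of S1pr1 was −2.54, minus that of S1pr4 −5.43 and minus that of Ccr7 −6.29, again without overlap. The change of S1pr4 minus that of Ccr7 was −0.86, with overlapping values. Each of the 5 pairs without overlap had p = 0.1 in a two-sided exact permutation test, the smallest that 3 against 3 allows, and 0.12 after adjustment over the 6 pairs, and the remaining pair had p = 0.2. No pair could thus pass 0.05.

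The S1P receptor transcripts changed in total and in makeup. Of 5 receptor genes, S1pr1, S1pr4 and S1pr2 were tested, while S1pr3 and S1pr5 stayed at no more than 3.353 normalized counts in any library. S1pr2, a receptor that holds cells back from S1P, was not called (log2 fold change −0.90, adjusted p = 0.277 by edgeR). The summed level of the family was 12.9 ± 4.28 TPM in Foxo1TKO and 221 ± 85.5 TPM in Foxo1Ctrl cultures. S1pr1 made up 37.7%, 57.3% and 59.6% of that sum in the Foxo1TKO libraries and 86.2%, 90.7% and 89.9% in the Foxo1Ctrl libraries. Every Foxo1TKO share was thus below every control share, with a mean difference of −37.4 percentage points (two-sided exact permutation test, p = 0.1, the smallest possible). The share of S1pr4 was 45.3 ± 12.1% against 10.7 ± 2.26%, at a lower level of both receptors.

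Of 9 listed genes that make, destroy or export S1P, 5 were tested, of which 2 were called higher and none lower. Among all genes tested, 11.1% were called higher and 11.8% lower. The median of the tested genes of this list was 0.02 on the log2 scale. Sgpp2, an S1P phosphatase, rose from 34.3, 29.5 and 36.5 to 98.9, 86.1 and 102 normalized counts (log2 fold change 1.49, adjusted p = 0.00555 by edgeR). Plpp1, a membrane lipid phosphatase that can act on S1P, rose from 3.55, 2.27 and 0.961 to 9.22, 40 and 52.1 normalized counts. The fitted rise was about 10.8-fold (adjusted p = 0.0122 by edgeR). The size of this rise is uncertain, because no Foxo1Ctrl library held more than 3 raw counts. The Plpp1 call was lost without Foxo1Ctrl 3 (adjusted p = 0.0502 by edgeR). Sgpl1, the S1P lyase, had a log2 fold change of 0.02. Sgpp1, another S1P phosphatase, had 210.4, 341.1 and 365 counts in Foxo1TKO and 390.2, 497.9 and 418.9 in Foxo1Ctrl libraries, which did not overlap, and was not called (log2 fold change −0.51, adjusted p = 0.174 by edgeR).

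Downstream of the receptor and in its removal from the surface, 2 of the 9 genes tested were called lower and none higher. The shares over all genes tested were 11.8% and 11.1%. Cd69, which binds S1pr1 and takes it off the surface of activated T cells, had 3827, 4181 and 3493 normalized counts in Foxo1TKO against 2961, 3254 and 3711 in Foxo1Ctrl libraries. These values overlapped (log2 fold change 0.21, adjusted p = 0.352 by edgeR). Grk2, the kinase that desensitizes S1pr1 in blood, fell by 1.11 on the log2 scale (adjusted p = 0.00888 by edgeR). Arrb1, a beta-arrestin, fell by 0.94 (adjusted p = 0.0447), a call lost when counts were scaled to the T-cell markers (adjusted p = 0.0702), with limma on TPM (0.134) and without Foxo1TKO 2 (0.165), Foxo1TKO 3 (0.123), Foxo1Ctrl 1 (0.164) or Foxo1Ctrl 3 (0.105). Gnai2, Gna13 and Arhgef1, which carry the signals of these receptors, were not called (log2 fold changes −0.02, −0.27 and −0.61).

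**Figure D3:**
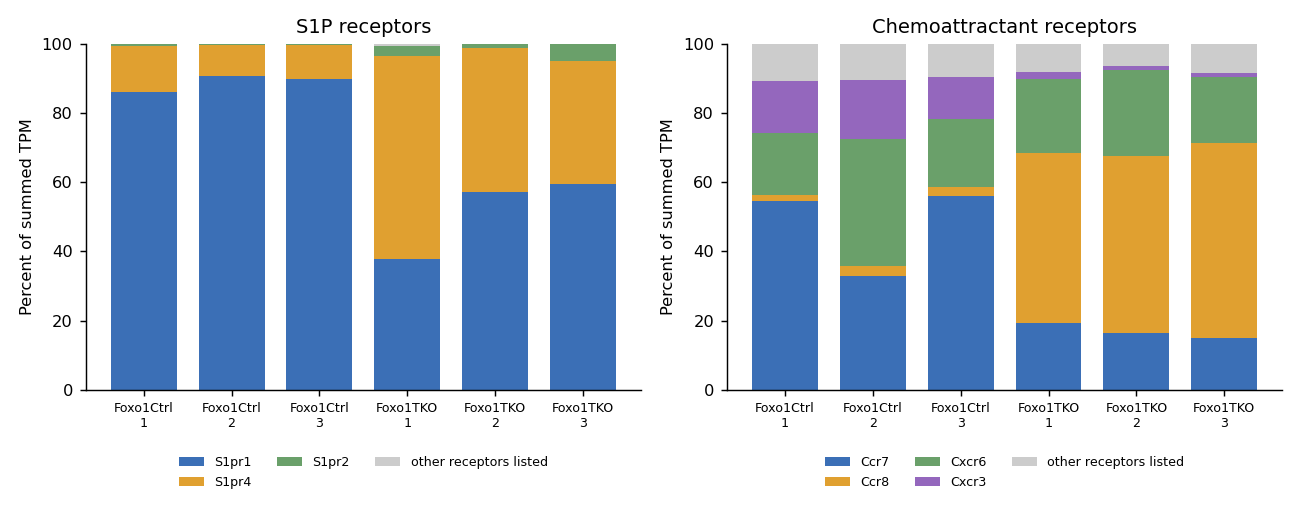
Share of each receptor in the summed TPM of its family, in percent, per library (stacked bars, left the S1P receptors and right the chemoattractant receptors). S1pr1 takes 86.2% to 90.7% in Foxo1Ctrl and 37.7% to 59.6% in Foxo1TKO libraries, and Ccr8 takes 49.2% to 56.6% of the chemoattractant receptors in Foxo1TKO and 1.51% to 3.06% in Foxo1Ctrl libraries.

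Among the receptors that position lymphocytes inside lymphoid organs, only Ccr7 was called. Cxcr4, the receptor for Cxcl12, had 82.1, 208.8 and 381 normalized counts in Foxo1TKO and 91, 83.9 and 94.2 in Foxo1Ctrl libraries. It overlapped and was not called (log2 fold change 1.31, adjusted p = 0.0917 by edgeR), but passed without Foxo1TKO 1 (1.69, adjusted p = 0.00891), with no filter on low counts (0.0384) and by DESeq2 (1.32, 0.0297), which also called more genes overall. Cxcr5, which guides cells to B-cell follicles, and Gpr183, a receptor for oxysterols, had log2 fold changes of 0.68 (adjusted p = 0.383) and −0.29 (adjusted p = 0.244) and overlapped. The chemokines Ccl19, Ccl21a, Cxcl12 and Cxcl13 were at 0 counts in all 6 libraries.

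Ccr7 also held a smaller share among all 17 chemoattractant receptors listed. It took 19.4%, 16.4% and 14.8% of their summed TPM in the Foxo1TKO libraries and 54.7%, 32.8% and 56.1% in the Foxo1Ctrl libraries. The shares did not overlap with a mean difference of −31 percentage points (two-sided exact permutation test, p = 0.1, the smallest possible), although the sum itself was 1200 ± 205 TPM in Foxo1TKO and 954 ± 228 TPM in Foxo1Ctrl cultures. Ccr8, a receptor of skin-homing and regulatory T cells, took 52.4 ± 3.79% against 2.34 ± 0.782%. It rose from 244.8, 375.4 and 380.5 normalized counts to 8379, 10800 and 8955 (log2 fold change 4.81, adjusted p = 3.42e-05 by edgeR). Ccr8 is part of the sum that the Ccr7 share is taken from, and the TPM of Ccr7 itself overlapped between the genotypes. Cxcr6, a receptor of tissue-resident and effector T cells, took 21.3%, 24.8% and 19.1% against 18%, 36.7% and 19.8%, so that in Foxo1Ctrl 2 it lay above Ccr7. Cxcr3, a receptor of T helper 1 cells, fell by 3.17 and held 1.33 ± 0.45% against 14.7 ± 2.48%. Of the 10 tissue and inflammatory receptors tested, 4 were called lower and 4 higher.

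Among the adhesion molecules, integrin chains differed in their change. The chains of the gut-homing integrin α4β7 fell together. Itga4 fell by 1.44 (adjusted p = 0.000533 by edgeR), and Itgb7, a gene that depends on Klf2, fell by 1.34 (adjusted p = 0.0116 by edgeR, lost without Foxo1TKO 2 at 0.0583). Itgal and Itgb2, the chains of LFA-1, had log2 fold changes of 0.29 (adjusted p = 0.318) and 0.33 (adjusted p = 0.444), and Itgb1 of −0.01 (adjusted p = 0.99).

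Between receptor and integrin, 3 of 11 genes tested were called lower and 1 higher, beside 11.8% and 11.1% of all genes tested. Rasgrp2, the exchange factor that activates Rap1 in T cells, fell by 3.73 on the log2 scale, from 923.5, 571.6 and 786 normalized counts to 59.5, 74 and 35.1 (adjusted p = 0.000265 by edgeR). Dock2, which activates Rac behind chemokine receptors, fell by 1.14 (adjusted p = 0.00597) and Stk4, the kinase Mst1, fell by 0.86 (adjusted p = 0.00736). Rap1a rose by 0.77 (adjusted p = 0.026 by edgeR), a call lost without Foxo1TKO 1 (0.0519), Foxo1TKO 2 (0.085), Foxo1TKO 3 (0.079) or Foxo1Ctrl 1 (0.0584). Rassf5, Fermt3, Tln1, Rac2 and Coro1a were not called and overlapped.

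**Figure D4:**
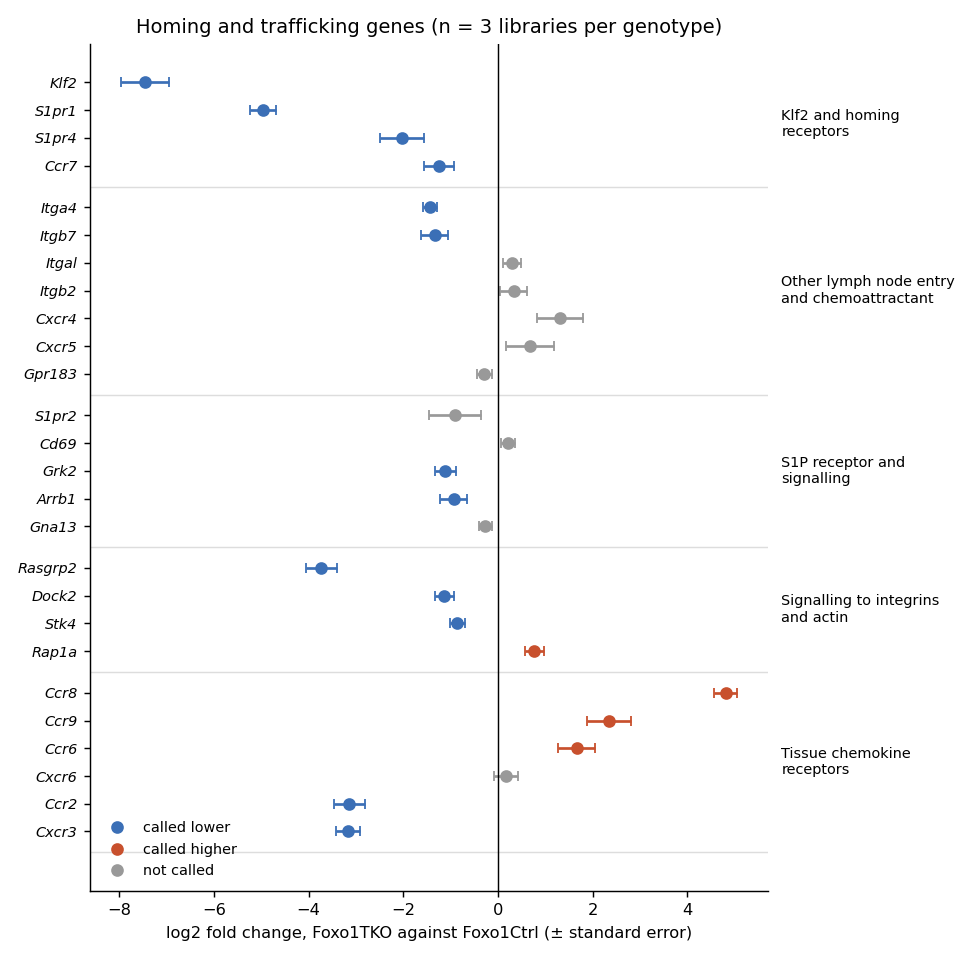
Log2 fold change, Foxo1TKO against Foxo1Ctrl, with its standard error (n = 3 libraries per genotype) for Klf2, the homing receptors and genes of their pathways, grouped by role and coloured by the call. Klf2 at −7.46 and S1pr1 at −4.97 lie farthest to the left, and Ccr8 at 4.81 lies farthest to the right.

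Of 11 genes known to control Klf2, 3 were called lower and none higher, with a median log2 fold change of −0.79. Among all genes tested, 11.8% were called lower and 11.1% higher. The count and the median include Foxo1, which was deleted by design, so that its call was fixed in advance. Beside Foxo1 itself, the genes called lower were ubiquitin ligases that mark Klf2 protein for breakdown. Fbxw7 fell by 1.41 (adjusted p = 0.00563 by edgeR). Smurf1 fell by 1.23 (adjusted p = 0.0234 by edgeR), a call lost with limma on TPM (0.0592) and without Foxo1TKO 1 (0.0555), Foxo1TKO 3 (0.069), Foxo1Ctrl 1 (0.0826) or Foxo1Ctrl 3 (0.0762). Among the factors that bind the MEF2 motif, Mef2c had 30.2, 49.6 and 3.19 normalized counts against 105, 127 and 109.5. Its libraries did not overlap and it was not called (log2 fold change −1.99, adjusted p = 0.064 by edgeR), but it passed in 6 of the 20 alternatives, among them without Foxo1TKO 3 (−1.49, adjusted p = 0.0242). Mef2d and Mef2a had log2 fold changes of −0.38 and −0.03. Mapk7 and Map2k5, the genes of Erk5 and Mek5, were not called (0.12 and 0.47). Foxo3, the other Foxo factor of T cells, had a log2 fold change of −0.57 (adjusted p = 0.211 by edgeR).

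Klf2 held 4.45%, 4.65% and 4.8% of the summed TPM of the 17 Krüppel-like factors in Foxo1Ctrl libraries. In Foxo1TKO libraries it held 0.0981%, 0.028% and 0%. These did not overlap (two-sided exact permutation test, p = 0.1, the smallest possible). The family summed to 540 ± 66.6 TPM in controls and 248 ± 18.1 TPM in Foxo1TKO cultures. Of its 10 genes tested, 4 were called lower and 3 higher, beside 11.8% and 11.1% of all genes tested. With 1 library left out, the higher calls of Klf4 and Klf9 were each kept in only 2 of 6 fits. Klf3 came nearest to Klf2, with a log2 fold change of −4.05 (adjusted p = 0.000191 by edgeR), whereas Klf10 rose by 1.87 (adjusted p = 0.0111).

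The genes with the most similar pattern were found from log2 CPM (counts scaled to library size) centred on the mean of the 6 libraries, by the root mean square difference (RMS) from each of the 4 genes. This describes 6 points that share their libraries and their genotypes. For Klf2 they were Pde2a (RMS 0.651), Tmprss13 (0.758) and Atp6v0d2 (0.838), beside a median of 4.07 over all genes. Pde2a, a phosphodiesterase of cyclic nucleotides, averaged 4.21 ± 5.85 normalized counts in Foxo1TKO and 415 ± 154 in Foxo1Ctrl libraries. Atp6v0d2 was at 0 in every Foxo1TKO library and Tmprss13 averaged 0.279 ± 0.484 counts there, so their likeness to Klf2, itself near 0, depends on the prior count. For S1pr1 they were Gucy2e (0.192), F2rl1 (0.245) and Clstn3 (0.257), of which F2rl1, a protease-activated receptor, had 25.1 ± 6.11 against 837.1 ± 341 counts. Gucy2e and Clstn3 were at 0 in all Foxo1TKO libraries and averaged 23.5 ± 8.1 and 24.9 ± 11.8 counts in controls, so their likeness to S1pr1 is set by the prior count and is no measure of their change. S1pr4 was followed most closely by Frmd8 (0.112), Slfn2 (0.158) and Sytl1 (0.163). Ccr7 was followed by H2-K2 (0.127), a class I MHC gene with near copies among which reads may be split, then Pglyrp2 (0.128) and Dgat1 (0.135). Among the 4 genes themselves S1pr4 and Ccr7 were nearest to each other (0.56), with 268 genes nearer to S1pr4 than Ccr7 was. Klf2 and S1pr1 were 1.73 apart, and 48 genes were nearer to Klf2.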

How the data were processed

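The RNA of 3 Foxo1TKO and 3 Foxo1Ctrl cultures was analysed. The authors aligned reads with STAR 2.7.6a to GRCm38, allowed 1 to 10 loci per read, and deposited RSEM 1.3.1 expected counts per gene, effective lengths and TPM for each library. They also deposited a normalized signal per gene, which is the expected count scaled by size factor (DESeq2) and relative effective length, for 13564 genes. Trimming and strandedness are not given in the sources used here.

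Expected counts were rounded. The 13691 of 55487 genes that reached 10 counts in 3 or more libraries were compared between genotypes by the quasi-likelihood test of edgeR 4.0.16 (R 4.3.3), with TMM scaling, a prior count of 1 and no further term. Normalized counts are counts divided by TMM size factors with a geometric mean of 1. Library totals ran from 14783853 to 19675407 counts, and relative counting error is larger for genes with few counts. Shares of TPM and within-library ratios were compared by two-sided exact permutation tests in R. limma 3.58.1 and DESeq2 1.42.0 were alternatives, beside other scalings, filters, a replicate block and each library left out. The fits were tested on simulated data. Positions came from GENCODE M21 and promoter sequences from RefSeq (GRCm38.p6). The 4 genes, the gene lists and the markers were chosen with earlier results of these data known. The genes named are the 4 genes, genes of the lists, Foxo1, and for each of the 4 genes the 3 with the most similar pattern. Some genes of the lists are not reported here.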

Additional observations from a re-analysis of the deposited data

How the results depend on the processing

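Klf2 and S1pr1 were called lower in all 20 alternatives, S1pr4 in 18 and Ccr7 in 15, and the direction of these 4 genes never changed. Of these 20, the alternative with no fold limit is the main fit under a looser rule and cannot lose a call. The correction for GC content was chosen after the data were seen. Beside fits with 1 library left out, Ccr7 was lost with limma on log2(TPM + 0.1), at −1.13, and the cause was not tested. With 1 library left out the log2 fold change ran from −8.37 to −7.08 for Klf2, −5.18 to −4.82 for S1pr1, −2.54 to −1.64 for S1pr4 and −1.52 to −1.08 for Ccr7. In these fits, which have fewer samples, between 2 and 4 of the 4 genes, 22 to 31 listed genes and 1854 to 3321 of all genes were called, beside 4, 32 and 3144 with all libraries; 1854 was without Foxo1TKO 2, and 2032 without Foxo1Ctrl 1. Scaling to the T-cell marker counts moved the median of all genes to 0.12 and the share of higher calls from 48.5% to 58.2%. DESeq2 called 3694 genes and the correction for GC content 3404. Of the genes that control Klf2, 6 were called lower by DESeq2 and 5 with limma on log2(signal + 10), beside 3, and of the genes of S1P receptor signalling, 4 with the GC correction, beside 2. In expected counts, which are not per length, the share of Klf2 in its family differed by −2.03 percentage points in place of −4.59. The fit with a replicate block called 3318 genes and all 4 genes (−7.49, −4.92, −2.03 and −1.19). In this fit the standard error of S1pr4 was 0.27 (adjusted p = 0.00305 by edgeR), beside 0.46 (0.0154) without the block. That of Ccr7 was 0.32 (0.0353), beside 0.31 (0.0237). Same-numbered libraries correlated at 0.432, 0.198 and −0.109, and not every library correlated best with its own number. With 3 libraries per genotype these correlations cannot decide whether the numbers pair the samples. Cxcr6, not called, ran from −0.07 (without Foxo1TKO 2) to 0.41 with 1 library left out, around 0.17; of the values of the listed genes that were also refitted under the 20 alternatives, some of which are not named above, 778 kept direction and side of the threshold, 48 lost and 9 gained a call. Levels near 0, such as Klf2 in Foxo1TKO libraries, are limited by depth.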

Other observations

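The rest of the Krüppel-like family moved in both directions. Klf6 fell from 4099, 4304 and 3719 to 1314, 1443 and 1202 normalized counts (log2 fold change −1.61, adjusted p = 0.000302 by edgeR), and Klf13, the most abundant member by TPM, fell by 1.39 (adjusted p = 0.002). Klf7 and Klf16 were not called (log2 fold changes −0.45 and 0.21). In Foxo1TKO libraries Klf10, which is induced by TGF-beta, took 30.5%, 18.5% and 15.8% of the summed TPM of the family against 3%, 1.32% and 3.42% in Foxo1Ctrl libraries.

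Other homing receptors of low level were also called. Ccr9, the receptor of gut-homing T cells, rose from 11.8, 29.5 and 12.5 to 56.2, 113.1 and 114.9 normalized counts (log2 fold change 2.34, adjusted p = 0.00944 by edgeR). Ccr2, a receptor of inflamed tissue, fell by 3.14 on the log2 scale (adjusted p = 0.000636 by edgeR). Cxcr6 was abundant in both genotypes, at 264 TPM in Foxo1TKO and 221 TPM in Foxo1Ctrl cultures on average, and overlapped.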
